A study of Xenopus laevis with 30 samples.

Results

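The 6 gene copies followed here belong to, or respond to, the oxygen-sensing pathway, and their levels were compared in bisected and undivided Xenopus laevis embryos: egln2.L, egln3.L, egln3.S, bnip3.L, bnip3.S and ankrd37.L. They are 6 of 17321 genes listed at either of 2 stages and of 14948 listed at both, and they were taken by name because they are linked to hypoxia and were lower in every kind of half-embryo than in whole embryos. That contrast therefore chose the genes, and its values are given for them as a description with no test. The suffixes .L and .S mark the copies of a gene, called homeologs, on the long and short chromosome sets of this allotetraploid frog.

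Poly(A) RNA of Nasco strain embryos was sequenced in 30 libraries, 3 for each of 5 groups at stage 10.5 (early gastrula) and at stage 12 (late gastrula). The groups were left, right, dorsal and ventral half-embryos and undivided whole embryos. All half-embryos were separated at stage 8, the blastula, in Barth's solution and then grown in a dilution of it, whereas the stated medium of embryos otherwise is Marc's Modified Ringer, diluted. By this description the cut and the medium changed together, and their parts in any difference from whole embryos cannot be told apart. The labels do not say that replicates came from separate clutches or how many embryos were pooled, and p-values measure the spread between these libraries, which may be technical. In whole-animal RNA, fewer cells of a type and less RNA per cell cannot be told apart.

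When oxygen is plentiful, prolyl hydroxylases of the EGLN (PHD) family use it to hydroxylate the alpha subunits of hypoxia-inducible factor (HIF), which are then bound by the VHL ubiquitin ligase and degraded. When oxygen falls, HIF alpha subunits accumulate, pair with ARNT and raise the transcription of genes for glycolysis, red cell and vessel growth, mitophagy and pathway feedback. In mammalian cells EGLN3, BNIP3 and ANKRD37 are HIF targets themselves. EGLN2 (PHD1) and EGLN3 (PHD3) are hydroxylases, BNIP3 is a protein of the outer mitochondrial membrane that promotes mitophagy and cell death, and ANKRD37 is a small ankyrin-repeat protein whose function is less well known.

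Values are deposited RPKM, reads scaled by gene length and library depth. The depth was 3814623 to 5813109 reads in half-embryo libraries and 3532883 to 3739329 in whole-embryo libraries at stage 10.5, and 2526910 to 5071874 in half-embryo and 2091772 to 2920488 in whole-embryo libraries at stage 12, counting listed genes. In the check of the labels, 16 of 16 models of organizer markers were higher in dorsal than in ventral half-embryos at both stages, and their summed level was 1219 to 1727 RPKM in dorsal and 72.9 to 121.7 RPKM in ventral half-embryos at stage 12. Of 16 models of ventral markers, 0 were higher in dorsal than in ventral half-embryos at stage 10.5 and 2 at stage 12. Left half-embryo 2 at stage 12 stood apart, with an organizer sum of 189 RPKM, against 999 and 954 RPKM in the other left half-embryos. Its sum of ventral markers was 1672 RPKM, against 925 and 831 RPKM in the other left half-embryos. At stage 10.5 the organizer sum of right half-embryo 2 was also low, at 336.5 RPKM against 850.5 and 827 RPKM in the other right half-embryos. That of left half-embryo 2 was high, at 1192 RPKM against 572 and 837 RPKM in the other left half-embryos. The 4 mitochondrial gene models took 1.11% to 2.00% of the RPKM of half-embryos and 0.626% to 1.18% of that of whole embryos at stage 10.5, and 0.778% to 1.75% in half-embryos against 0.324% to 0.666% in whole embryos at stage 12. This share moved with the comparison of half-embryos with whole embryos, and its part in the values below was not tested. Of all genes called in that comparison, 30.9% were higher in half-embryos at stage 10.5 and 50% at stage 12, and these shares were 41.2% and 62.7% with upper-quartile scaling, 46.9% and 58.9% with quantile normalization and 18.2% and 28.9% with limma's voom method on recovered reads.

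The hydroxylase gene egln3.L had the highest RPKM of the 3 hydroxylase copies in each group at both stages. At stage 10.5 it was listed at 2.77, 7.42 and 5.82 RPKM in left, 3.33, 7.54 and 5.15 in right, 2.88, 9.64 and 3.89 in dorsal and 3.17, 10.2 and 4.61 in ventral half-embryos, against 16.7, 17.8 and 43.6 RPKM in whole embryos. The half-embryos and whole embryos did not overlap, and whole embryo 3 stood far above the other whole embryos. Among half-embryos the number 2 libraries were highest in all 4 kinds, at 7.42 to 10.2 RPKM, with number 1 at 2.77 to 3.33 and number 3 at 3.89 to 5.82. This replicate pattern crossed every kind of half-embryo and had no counterpart in whole embryo 2, which at 17.8 RPKM lay next to whole embryo 1. The mean of the 12 half-embryos was 21.3% of that of whole embryos. On the log2(RPKM + 1) scale, which understates the change of genes at low RPKM, the difference was -2.01, and it was -1.58 without whole embryo 3.

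At stage 12 egln3.L stood at 5.85, 9.92 and 6.77 RPKM in left, 5.07, 11.3 and 10.8 in right, 6.18, 8.86 and 8.15 in dorsal and 6.76, 7.59 and 8.63 in ventral half-embryos, against 20.9, 32.6 and 29.5 RPKM in whole embryos. The groups again did not overlap, with 11.3 RPKM in the highest half-embryo and 20.9 RPKM in the lowest whole embryo. The half-embryo mean was 28.9% of the whole-embryo mean, a difference of -1.68 in log2(RPKM + 1). These values rested on 44 to 147 reads per half-embryo library and 126 to 262 reads per whole-embryo library.

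Its homeolog egln3.S had lower RPKM in all 30 libraries. At stage 10.5 it was listed at 0.949, 2.24 and 1.49 RPKM in left, 0.698, 1.5 and 1.15 in right, 0.666, 1.40 and 0.854 in dorsal and 0.861, 1.66 and 0.914 in ventral half-embryos, against 3.05, 2.95 and 6.75 RPKM in whole embryos. The number 2 libraries were again the highest of each kind of half-embryo, and whole embryo 3 was again the highest of the whole embryos. At stage 12 the values were 2.41, 2.62 and 1.45 RPKM in left, 1.28, 1.12 and 1.75 in right, 1.20, 1.81 and 1.84 in dorsal and 1.20, 1.53 and 2.07 in ventral half-embryos, against 3.56, 7.01 and 4.91 RPKM in whole embryos. The groups did not overlap at either stage. Half-embryo means were 28.2% and 32.7% of whole-embryo means at stages 10.5 and 12, differences of -1.21 and -1.18 in log2(RPKM + 1).

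The third hydroxylase copy, egln2.L, was close to 1 RPKM in half-embryos. At stage 10.5 it stood at 1.42, 0.947 and 0.222 RPKM in left, 1.45, 1.33 and 0.820 in right, 1.14, 1.17 and 0.615 in dorsal and 1.03, 1.5 and 0.950 in ventral half-embryos, against 3.42, 2.45 and 4.60 RPKM in whole embryos. At stage 12 it stood at 1.16, 1.03 and 1.07 RPKM in left, 0.761, 1.06 and 0.606 in right, 1.14, 1.48 and 0.555 in dorsal and 0.683, 1.17 and 0.678 in ventral half-embryos, against 8.77, 4.11 and 5.2 RPKM in whole embryos. No half-embryo reached the lowest whole embryo at either stage. The half-embryo mean was 30.1% of the whole-embryo mean at stage 10.5 and 15.8% at stage 12, and the log2(RPKM + 1) differences were -1.13 and -1.81. The half-embryo values rested on only 3 to 28 reads per library at stage 10.5 and 6 to 15 at stage 12, and values of this size carry a large counting error.

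The mitophagy gene bnip3.L had the highest mean RPKM in half-embryos of the 6 copies, and at stage 10.5 the bnip3 copies had the smallest relative differences from whole embryos. At that stage it was listed at 15.6, 13.7 and 15 RPKM in left, 11.3, 12.4 and 12.5 in right, 17.8, 10.8 and 14.1 in dorsal and 13.8, 15.7 and 15.4 in ventral half-embryos, against 27.4, 19.4 and 33.2 RPKM in whole embryos. The groups did not overlap, but the gap was narrow, from 17.8 RPKM in dorsal half-embryo 1 to 19.4 RPKM in whole embryo 2. At stage 12 the values were 14.6, 12.0 and 14.5 RPKM in left, 14.1, 10.4 and 12.7 in right, 14.2, 10.9 and 15.9 in dorsal and 10.2, 9.94 and 20.8 in ventral half-embryos, against 55.7, 17.9 and 40.7 RPKM in whole embryos. Here the groups overlapped, since ventral half-embryo 3 lay above whole embryo 2. Half-embryo means were 52.5% and 35.1% of whole-embryo means at stages 10.5 and 12, differences of -0.86 and -1.33 in log2(RPKM + 1).

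The other copy, bnip3.S, was listed at stage 10.5 at 5.62, 3.69 and 5.46 RPKM in left, 5.29, 4.22 and 3.48 in right, 5.08, 5.22 and 4.25 in dorsal and 6.06, 4.92 and 4.86 in ventral half-embryos, against 8.67, 6.92 and 13.7 RPKM in whole embryos. At stage 12 it stood at 3.46, 3.81 and 4.18 RPKM in left, 3.63, 4.86 and 4.34 in right, 5.43, 4.31 and 4.80 in dorsal and 4.16, 5.27 and 4.49 in ventral half-embryos, against 12.7, 5.36 and 17.05 RPKM in whole embryos. At stage 10.5 the groups did not overlap, and at stage 12 dorsal half-embryo 1 lay just above whole embryo 2. Means were 49.7% and 37.6% of whole-embryo means, differences of -0.84 and -1.12 in log2(RPKM + 1). Without whole embryo 2, the whole embryo nearest to the half-embryos, the stage 12 differences were -1.55 for bnip3.S and -1.79 for bnip3.L.

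The ankyrin-repeat gene ankrd37.L was listed at 0.556, 0.219 and 0.222 RPKM in left, 2.49, 0.173 and 1.79 in right, 1.34, 0.438 and 0.410 in dorsal and 1.03, 2.71 and 0 in ventral half-embryos at stage 10.5, against 4.88, 2.76 and 30.7 RPKM in whole embryos. At stage 12 it was listed at 0.580, 0.283 and 0 RPKM in left, 3.71, 0.635 and 0.182 in right, 1.56, 2.97 and 0.371 in dorsal and 1.02, 1.00 and 0.679 in ventral half-embryos, against 4.12, 30.2 and 6.49 RPKM in whole embryos. One whole embryo at each stage stood far above the other whole embryos, number 3 at stage 10.5 and number 2 at stage 12. The groups did not overlap, although ventral half-embryo 2 at 2.71 RPKM came close to whole embryo 2 at 2.76 RPKM at stage 10.5, with 12 reads behind each value. Half-embryo libraries had 0 to 16 reads of this gene at stage 10.5 and 0 to 13 at stage 12, and whole-embryo libraries had 12 to 131 and 10 to 98. The log2(RPKM + 1) differences were -2.33 and -2.51. They were -1.41 at stage 10.5 without whole embryo 3 and -1.73 at stage 12 without whole embryo 2.

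**Figure D1:**
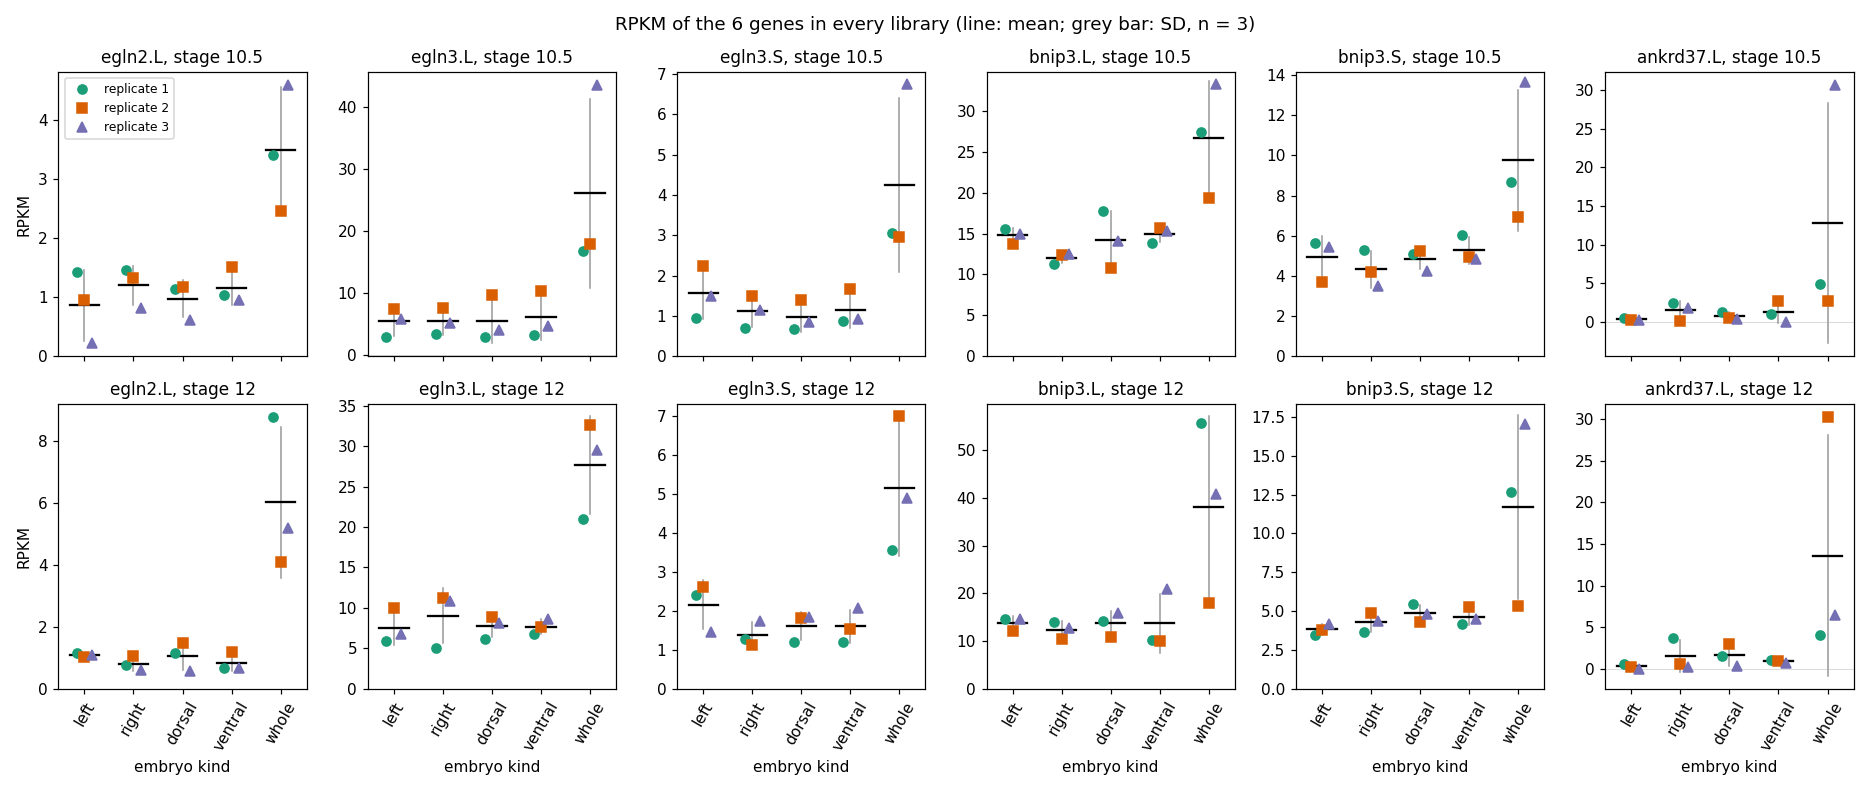
RPKM of each of the 6 genes in every library, by kind of embryo, at stage 10.5 (top) and stage 12 (bottom); points are libraries, lines are means and grey bars are SD over 3 libraries. Whole embryos have the highest mean and the largest SD in each panel, and for egln3.L at stage 10.5 they run from 16.7 to 43.6 RPKM, above all half-embryos at 2.77 to 10.2.

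Read together, the ranges of half-embryos and whole embryos were apart for 6 of the 6 genes at stage 10.5 and for 4 of the 6 at stage 12, where both bnip3 copies overlapped. Over all genes tested, all 12 half-embryo libraries lay below all 3 whole-embryo libraries for 6.66% of genes at stage 10.5 and 2.49% at stage 12. The genes were picked on this contrast, so that nothing is read from the excess over these shares. The labels name each whole embryo as the control of the half-embryos with its number. In that pairing all 6 genes were lower than the same-numbered whole embryo in 12 of 12 half-embryo libraries at both stages. This was true of 16.1% of all genes at stage 10.5 and 7.09% at stage 12. The 12 pairs of a stage share 3 whole-embryo libraries and are not independent, and nothing is read from this excess either. The pairs nearest to 0 differed by -0.02 in log2(RPKM + 1), in ankrd37.L at stage 10.5 and in bnip3.S at stage 12.

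**Figure D2:**
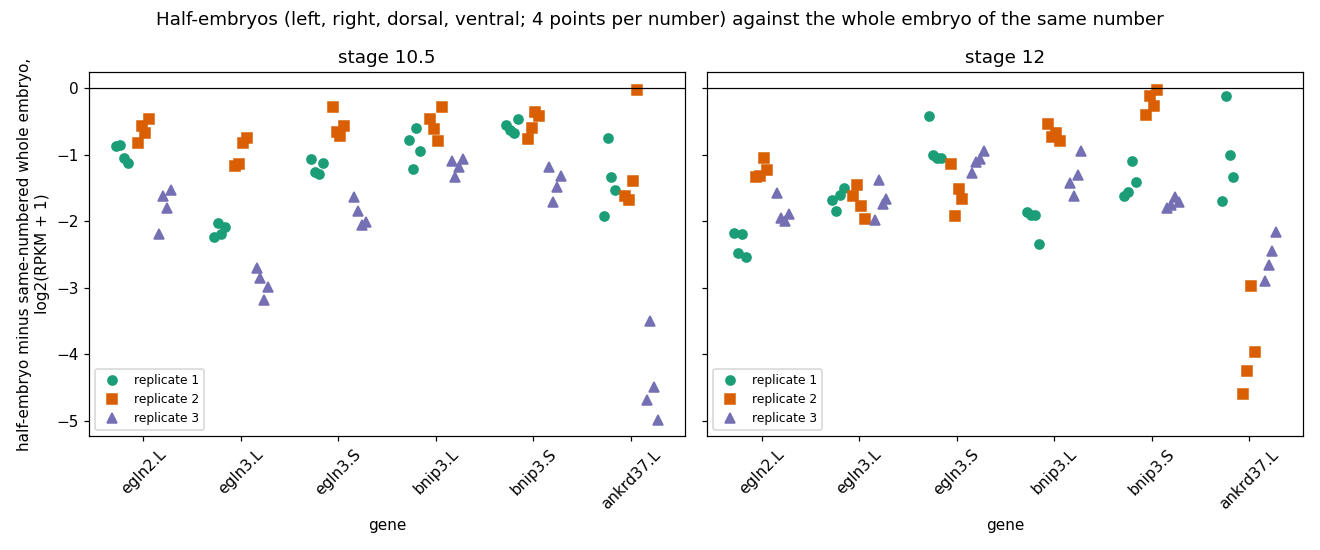
Difference in log2(RPKM + 1) between each half-embryo and the whole embryo of the same number, for the 6 genes at stage 10.5 (left) and stage 12 (right); each symbol is 1 half-embryo library and colours mark the replicate number. All points lie below 0, and in ankrd37.L at stage 10.5 the 4 points of number 3 lie below those of the other numbers.

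The whole embryos did not share 1 order at the later stage. At stage 10.5 whole embryo 3 was the highest for all 6 genes. At stage 12 the highest was whole embryo 1 for egln2.L and bnip3.L, whole embryo 2 for both egln3 copies and ankrd37.L, and whole embryo 3 for bnip3.S. The highest whole embryo was 1.72 to 2.62 times the lowest at stage 10.5 and 1.56 to 3.18 times at stage 12 for the egln and bnip3 copies, and 11.1 and 7.34 times for ankrd37.L.

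The levels were also ordered by group. Whole embryos had the highest mean for all 6 genes at both stages. Below them, at stage 10.5, the order was right, ventral, dorsal, left for egln2.L and ankrd37.L, ventral, dorsal, right, left for egln3.L, left, ventral, right, dorsal for egln3.S, and ventral, left, dorsal, right for both bnip3 copies. At stage 12 it was left, dorsal, ventral, right for egln2.L, egln3.S and bnip3.L, right, dorsal, ventral, left for egln3.L, dorsal, ventral, right, left for bnip3.S and dorsal, right, ventral, left for ankrd37.L. Neighbouring kinds of half-embryo overlapped in every one of these orders, with 1 exception, ankrd37.L at stage 12, where ventral half-embryos at 0.679 to 1.02 RPKM lay above left half-embryos at 0 to 0.580 RPKM.

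The .L copy of egln3 and of bnip3 was above the .S copy in every library. For egln3 it was 2.92 to 6.87 times the .S copy in half-embryos (median 4.52) and 5.46 to 6.46 times in whole embryos at stage 10.5. At stage 12 it was 2.42 to 10.1 times in half-embryos (median 4.80) and 4.65 to 6.01 times in whole embryos. For bnip3 the ratio was 2.07 to 3.73 in half-embryos (median 3.05) and 2.44 to 3.16 in whole embryos at stage 10.5, and 1.89 to 4.64 in half-embryos (median 3.04) and 2.39 to 4.39 in whole embryos at stage 12. The ratios of half-embryos and whole embryos overlapped for both genes at both stages. Reads of near-identical copies may have been split or shared by the authors' counting, and how it treated them was not given in the sources used here, so the ratios are uncertain.

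**Figure D3:**
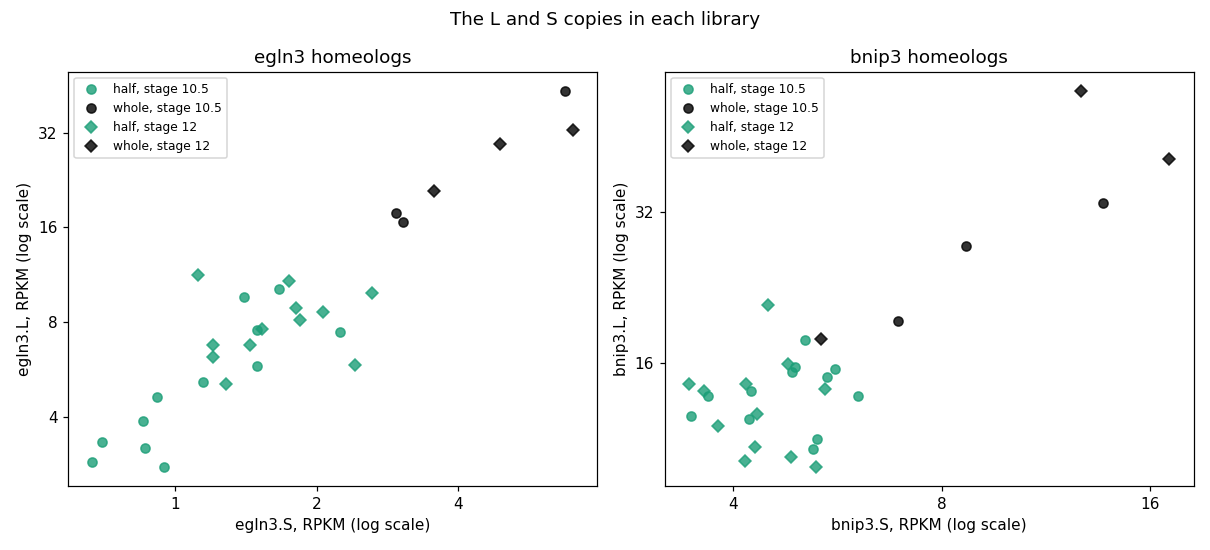
RPKM of the .L copy against the .S copy of egln3 (left) and bnip3 (right) in each library, both axes on a log scale; green is half-embryos, black is whole embryos, circles are stage 10.5 and diamonds stage 12. For egln3 the whole embryos lie at the upper right of all half-embryos, and for bnip3 at stage 12 whole embryo 2 lies near the half-embryos, at 17.9 and 5.36 RPKM.

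The remaining homeologs of the 6 are not among them. The ankrd37.S copy was listed at both stages, at 0 to 0.678 RPKM in half-embryos and 4.80, 4.28 and 14.1 RPKM in whole embryos at stage 10.5, and at 0 to 0.951 RPKM in half-embryos against 2.70, 11.8 and 1.29 RPKM in whole embryos at stage 12. The egln2.S copy was listed at stage 12 alone, at 0 to 0.497 RPKM in half-embryos and 5.31, 1.63 and 5.70 RPKM in whole embryos. Both had 0 to 3 reads per half-embryo library, and no half-embryo reached 1 RPKM. They entered the test through the whole embryos alone and had to differ, so that their log2(RPKM + 1) differences of -2.49 and -1.87 (ankrd37.S) and -1.99 (egln2.S) are no support for the 6 genes. At stage 12 the ratio of egln2.L to egln2.S was 2.08 to 6.82 in the half-embryo libraries where egln2.S was above 0, and 0.912 to 2.52 in whole embryos.

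The choice of the 6 genes did not use the differences among half-embryos, which can be tested. Setting dorsal against ventral half-embryos asks whether a gene differs between the side that holds the Spemann organizer, the signalling centre of the gastrula, and the opposite side. None of the 6 genes was called in it at either stage by limma at a Benjamini-Hochberg adjusted p of 0.05, where 0.990% of all genes were called at stage 10.5 and 3.76% at stage 12 (2.17% and 5.76% when a block for replicate number was fitted, also with 0 of the 6). No gene of the 6 had an unadjusted p under 0.05 either. At stage 10.5 the log2 differences, dorsal minus ventral, were -0.13 for egln3.L (95% interval -1.19 to 0.93), -0.12 for egln3.S (-0.75 to 0.51), -0.14 for egln2.L (-0.71 to 0.43), -0.09 for bnip3.L (-0.50 to 0.32), -0.10 for bnip3.S (-0.59 to 0.39) and -0.22 for ankrd37.L (-1.69 to 1.25). All 6 were below 0, each by less than its standard error. These standard errors and intervals are of the fit with no replicate block, so they include the spread between replicate numbers. None from a paired fit are given.

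At stage 12 the same differences were all above 0. They were 0.00 for egln3.L (-0.59 to 0.60), 0.01 for egln3.S (-0.52 to 0.54), 0.14 for egln2.L (-0.40 to 0.69), 0.06 for bnip3.L (-0.69 to 0.81), 0.05 for bnip3.S (-0.57 to 0.68) and 0.34 for ankrd37.L (-0.99 to 1.68). Whether the difference itself changed with stage was tested across all 30 libraries together. The change was 0.13 to 0.57, 0 of the 6 genes were called, 0 had an unadjusted p under 0.05, and 0.00% of all genes were called. The intervals leave room for dorsal to ventral differences of either sign, the widest for ankrd37.L, and do not show that the sides were alike. They come, like those below, from the fit with no replicate block, and so include the spread between replicate numbers.

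Left and right half-embryos come from a cut along the midline. None of the 6 genes was called in left over right, in which 0.00% of all genes were called at either stage, and 0 of the 6 had an unadjusted p under 0.05. The log2 differences, left minus right, were -0.77 to 0.27 at stage 10.5 and -0.72 to 0.40 at stage 12, with 3 of the 6 genes positive at each stage. The lowest was that of ankrd37.L at both stages, with 95% intervals of -2.24 to 0.70 and -2.06 to 0.61. The copies of egln3 and bnip3 did not all go the same way, since at stage 12 egln3.S stood at 0.40 (-0.13 to 0.92) and egln3.L at -0.20 (-0.79 to 0.39).

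The cut planes were compared as sagittal half-embryos (the mean of left and right) over frontal half-embryos (the mean of dorsal and ventral). Again 0 of the 6 genes were called and 0 had an unadjusted p under 0.05, where 0.0240% of all genes were called at stage 10.5 and 0.0128% at stage 12. These shares are 4 and 2 genes, and with the replicate block the stage 10.5 count was 13 genes, again with 0 of the 6. The log2 differences were -0.12 to 0.17 at stage 10.5 and -0.39 to 0.07 at stage 12. The narrowest intervals were those of bnip3.L at stage 10.5 (-0.11, interval -0.40 to 0.18) and of egln3.S at stage 12 (0.07, interval -0.30 to 0.44). Without left half-embryo 2 at stage 12, a library with few organizer transcripts, 72 of all genes (0.462%) were called in sagittal over frontal in place of 2, but 0 of the 6 genes in any of the 3 comparisons among half-embryos. The differences of the 6 from whole embryos then lay between -2.51 and -1.12. At stage 10.5, 0 of the 6 were called in these comparisons without left half-embryo 2 or without right half-embryo 2, and their differences from whole embryos lay between -2.31 and -0.80 and between -2.21 and -0.84. Without right half-embryo 2 at stage 10.5, 3 of all genes were called in left over right in place of 0, and 9 in sagittal over frontal in place of 4. In dorsal over ventral, 4.08% of all genes were called without left half-embryo 2 at stage 12. At stage 10.5, 0.936% were called in it without left half-embryo 2 and 0.93% without right half-embryo 2.

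**Figure D4:**
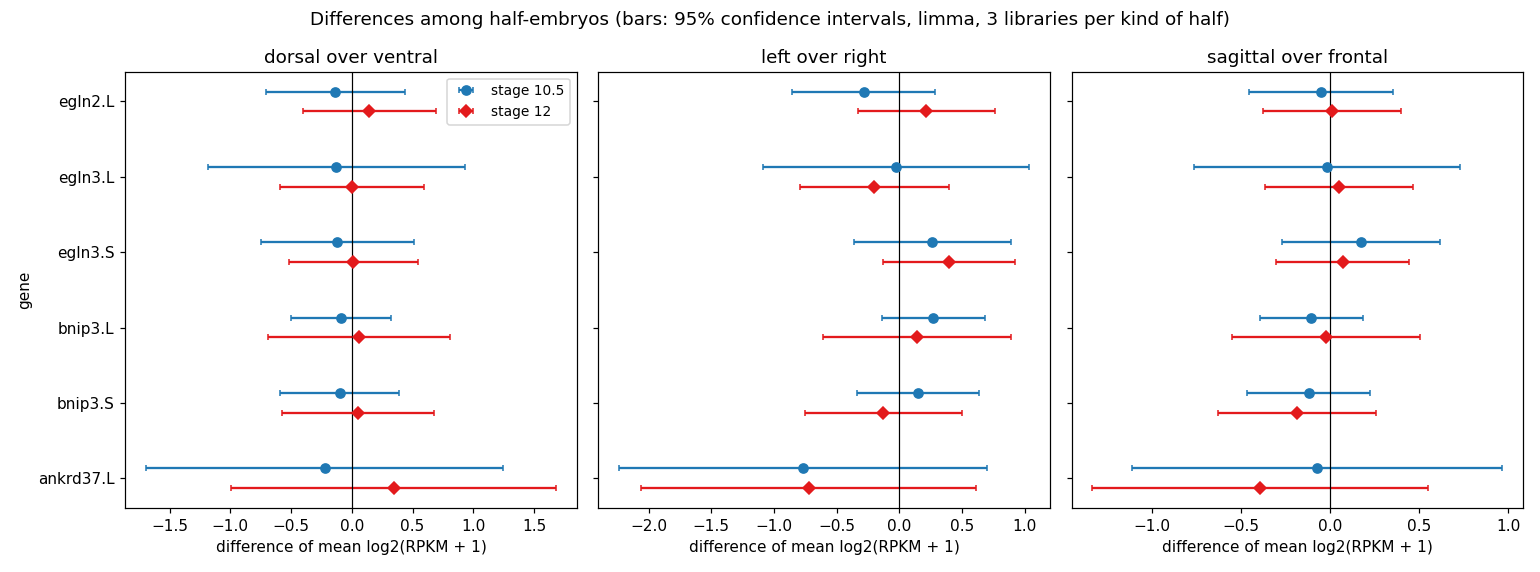
Differences among half-embryos for the 6 genes in log2(RPKM + 1), dorsal over ventral (left), left over right (middle) and sagittal over frontal (right), with 95% confidence intervals from limma with no replicate block. Blue circles are stage 10.5 and red diamonds stage 12. Every interval crosses 0, and those of ankrd37.L are the widest, from -2.24 to 0.70 for left over right at stage 10.5.

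Levels at the 2 stages come from tables normalized separately and were not tested against each other. Set side by side, egln2.L averaged 1.05 ± 0.376 RPKM in half-embryos and 3.49 ± 1.07 RPKM in whole embryos at stage 10.5, and 0.950 ± 0.286 RPKM in half-embryos and 6.03 ± 2.44 RPKM in whole embryos at stage 12. For bnip3.L the means were 14 ± 2.03 RPKM in half-embryos and 26.7 ± 6.97 RPKM in whole embryos at stage 10.5, and 13.4 ± 3.09 RPKM in half-embryos and 38.1 ± 19.0 RPKM in whole embryos at stage 12. For egln3.L they were 5.54 ± 2.62 RPKM in half-embryos and 26.0 ± 15.2 RPKM in whole embryos at stage 10.5, and 7.99 ± 1.98 RPKM in half-embryos and 27.7 ± 6.05 RPKM in whole embryos at stage 12 (SD over 12 half-embryo and 3 whole-embryo libraries).

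The other genes of the pathway were taken from lists of the oxygen-sensing machinery, HIF targets, glycolysis, mitophagy and autophagy, and the BCL2 family to which BNIP3 is related, with the 6 genes left out. A gene of 2 lists was counted in each list, but once in the counts over all lists. Most did not pass the test of half-embryos over whole embryos. At stage 10.5, 3 of 145 tested genes were called higher and 12 lower, where 2.38% of all genes were called higher and 5.31% lower. Their median log2 difference was -0.09, beside -0.07 over all genes. At stage 12, 1 of 139 was higher and 11 lower, where 1.39% of all genes were called in each direction, and the median was -0.12, beside -0.03. These counts include genes with no library at 1 RPKM in 1 kind of embryo, which passed the filter through the other kind alone. Those called were ankrd37.S at both stages and egln2.S at stage 12, among the lower calls, and the model Xelaev18011284m at stage 10.5, among the higher calls. Over genes with a library at 1 RPKM in each kind of embryo, 2 of 142 were called higher and 11 lower at stage 10.5, where 2.28% and 5.34% of all such genes were, and 1 of 137 higher and 9 lower at stage 12, where 1.31% and 1.39% were. Without some libraries fewer pathway genes, and fewer of all genes, were called, but without whole embryo 2 at stage 12 more were. At stage 10.5 the pathway count of 15 was 4 without whole embryo 1 (2.71% of all genes called), 10 without whole embryo 2 (4.43%), 1 without whole embryo 3 (0.354%), 7 without dorsal half-embryo 2 (6.07%) and 8 without ventral half-embryo 3 (5.51%). At stage 12 the pathway count of 12 was 3 without whole embryo 1 (0.263% of all genes called), 15 without whole embryo 2 (4.3%), 3 without whole embryo 3 (0.372%), and 7 without left 3, right 2, dorsal 3 or ventral 3 (1.69% to 1.85%). With the replicate number as a block, 55 of the 145 genes were called at stage 10.5 (18 higher, 37 lower), where 30.4% of all genes were called, and 22 of the 139 at stage 12 (3 higher, 19 lower), where 12.9% were.

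The machinery that reads oxygen was mostly without a call, as were most of all genes. Of 30 genes at stage 10.5, 0% were called higher and 6.67% lower, where 2.28% and 5.34% of all genes with a library at 1 RPKM in each kind of embryo were. That is 0 higher and 2 lower, with a median difference of 0.05. Those 2 were the model Xelaev18045447m, whose human match is the coactivator CREBBP, at 2.33 ± 0.205 RPKM in half-embryos and 4.59 ± 0.749 RPKM in whole embryos (log2 difference -0.74 ± 0.12 SE, limma adjusted p = 0.00636), and siah1.L, a ubiquitin ligase that targets EGLN proteins in mammals (-0.42 ± 0.10, adjusted p = 0.0284). The other CREBBP models, Xelaev18023557m, Xelaev18025572m and Xelaev18047706m, were not called at stage 10.5 (0.07, 0.03 and -0.38), and neither was siah1.S (0.14). Of 31 genes at stage 12, 0 rose and 1 was called lower, egln2.S above, which passed the filter through whole embryos alone. Without it 0% were called in either direction, where 1.31% of all genes were called higher and 1.39% lower.

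The HIF alpha subunit hif1a.L was listed at 44.0 ± 3.44 RPKM in half-embryos and 38.8 ± 4.97 RPKM in whole embryos at stage 10.5, and at 35.4 ± 2.22 RPKM in half-embryos and 30.6 ± 3.67 RPKM in whole embryos at stage 12, with log2 differences of 0.18 (limma adjusted p = 0.215) and 0.21 (adjusted p = 0.211). Its homeolog hif1a.S stood at 19.4 ± 1.82 RPKM in half-embryos and 20.2 ± 1.62 RPKM in whole embryos at stage 10.5 (log2 difference -0.06, adjusted p = 0.789), and at 26.0 ± 2.59 RPKM in half-embryos and 32.5 ± 3.25 RPKM in whole embryos at stage 12 (log2 difference -0.31, adjusted p = 0.141). With the replicate block hif1a.S was called lower at stage 12, at an adjusted p of 0.0393. The copies of the second alpha subunit epas1, of the partner arnt, of the ligase subunit vhl and of the asparagine hydroxylase hif1an, and the hydroxylase egln1.S, had log2 differences between -0.19 and 0.40 at the 2 stages and were not called. The BNIP3L models Xelaev18018684m and Xelaev18020221m, relatives of bnip3 that also act in mitophagy, stood at 0.08 and -0.01 at stage 10.5 and at -0.04 and -0.29 at stage 12, and were not called either.

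Among HIF targets, 2 of 37 genes were called higher and 4 lower at stage 10.5, with a median difference of -0.16, and 1 of 35 higher and 6 lower at stage 12, with a median of -0.30. Leaving out ankrd37.S and Xelaev18011284m, which passed the filter through 1 kind of embryo alone, the calls were 1 higher and 3 lower at stage 10.5 and 1 higher and 5 lower at stage 12. The mTOR inhibitor ddit4.S fell at stage 10.5, to 94.5 ± 19.5 RPKM in half-embryos, against 165.9 ± 36.5 RPKM in whole embryos (log2 difference -0.81 ± 0.14, limma adjusted p = 0.00958, and 0.0775 without whole embryo 3). The ddit4.S copy was also called lower at stage 12 (-0.75 ± 0.16, limma adjusted p = 0.0256). Its homeolog ddit4.L, with higher mean RPKM, was not called at either stage (-0.16 and -0.31, adjusted p = 0.522 and 0.273). A model matched to the collagen prolyl hydroxylase subunit P4HA2, Xelaev18017162m, fell by 0.74 on the log2 scale at stage 10.5. A model matched to the mitochondrial protein FAM162A, Xelaev18014432m, rose by 0.75, to 15.7 ± 3.09 RPKM in half-embryos, against 8.87 ± 1.81 RPKM in whole embryos (limma adjusted p = 0.0186). Another FAM162A model, Xelaev18011284m, stood at 0.738 to 2.53 RPKM in half-embryos and 0.386 to 0.760 RPKM in whole embryos, and its difference of 0.76 is a value only, since no whole embryo reached 1 RPKM. Neither FAM162A model was called at stage 12. There Xelaev18014432m stood at 0.39 and Xelaev18011284m at -0.70 (limma adjusted p = 0.387 and 0.321). At stage 12 wsb1.L, a ubiquitin ligase subunit, fell to 61.9 ± 6.02 RPKM, against 90.0 ± 10.5 RPKM in whole embryos (-0.53 ± 0.10, adjusted p = 0.0207). Its homeolog wsb1.S was not called at that stage (-0.16, limma adjusted p = 0.620). The vascular growth factor vegfa.L rose at stage 12, at 1.23 to 4.67 RPKM in half-embryos and 0.252 to 1.32 RPKM, or 2 to 14 reads, in whole embryos, of which 1 reached 1 RPKM (1.23 ± 0.25, adjusted p = 0.0241, and 0.0507 with voom on recovered reads). Called HIF targets thus went both ways at both stages. Leaving out ankrd37.S and Xelaev18011284m, 1 call was higher at each stage, against 3 lower at stage 10.5 and 5 at stage 12. Shares were taken over genes with a library at 1 RPKM in each kind of embryo. At stage 10.5, 2.86% of HIF targets were called higher and 8.57% lower, near the 2.28% and 5.34% of all genes. At stage 12 the shares were 2.94% higher and 14.7% lower, beside 1.31% and 1.39% of all genes. The higher calls, of Xelaev18014432m and vegfa.L, were lost without whole embryo 1 and without whole embryo 3. So were the lower calls of Xelaev18017162m, wsb1.L and pfkfb3.L.

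The glycolytic regulator pfkfb3.L, listed as a HIF target, fell at stage 12 (63.3 ± 25.3 RPKM in half-embryos, 100.8 ± 6.07 RPKM in whole embryos, log2 difference -0.80 ± 0.16, limma adjusted p = 0.0224). It also differed between sides, at 85.7 RPKM in dorsal and 27.3 RPKM in ventral half-embryos, a log2 difference of 1.61 (limma adjusted p = 0.000926). Its homeolog pfkfb3.S was not called against whole embryos at stage 12 (-0.30, adjusted p = 0.363). At stage 10.5 pfkfb3.S was called lower (-0.51, adjusted p = 0.0490) and pfkfb3.L was not called (-0.57, adjusted p = 0.0519).

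In glycolysis, 0 of 40 genes were called higher and 3 lower at stage 10.5, and 0 of 39 higher and 4 lower at stage 12. The lower calls were 7.5% and 10.3% of the list, beside 5.34% and 1.39% of all genes with a library at 1 RPKM in each kind of embryo. Gene models were counted singly, so the SLC16A3 models Xelaev18043771m and Xelaev18043774m count separately at stage 12. At stage 10.5 the genes called were the glycolytic enzyme gpi.L (-0.65 ± 0.14, limma adjusted p = 0.0174), the kinase pdk4.L, which restrains pyruvate oxidation (-1.02 ± 0.27, adjusted p = 0.0383), and the model Xelaev18043774m, matched to the lactate exporter SLC16A3 (-0.93 ± 0.25, adjusted p = 0.0421). The homeolog pdk4.S, with higher mean RPKM, was not called at that stage (-0.20, limma adjusted p = 0.418). At stage 12 another SLC16A3 model, Xelaev18043771m, stood at 101.5 ± 6.84 RPKM in half-embryos and 188.3 ± 23.8 RPKM in whole embryos, and the groups did not overlap (-0.88 ± 0.09, adjusted p = 0.000576). Its call was kept when any 1 of the 15 libraries was left out, with adjusted p-values of up to 0.0112. A PGK1 model, Xelaev18042225m, and the hexokinase hk1.L were also lower at stage 12 (-1.51 and -1.06, adjusted p = 0.0370 and 0.0421), but kept their calls in 7 and 3 of these 15 fits. The PGK1 models Xelaev18038892m and Xelaev18004746m were not called at stage 12 (0.01 and -1.42, limma adjusted p = 0.992 and 0.126). Of the SLC16A3 models, Xelaev18043774m was called lower at stage 12 as well (-1.16, adjusted p = 0.0437). The model with the highest RPKM, Xelaev18043762m, was not called at either stage (-0.07 and -0.28, adjusted p = 0.815 and 0.268). Neither were Xelaev18002053m, Xelaev18043772m and Xelaev18043775m.

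In mitophagy and autophagy, 1 of 34 genes was called higher and 2 lower at stage 10.5, and 0 of 31 higher and 1 lower at stage 12. At stage 10.5 these were 2.94% higher and 5.88% lower, beside 2.28% and 5.34% of all genes with a library at 1 RPKM in each kind of embryo. At stage 12 they were 0% higher and 3.23% lower, beside 1.31% and 1.39% of all genes. The autophagy receptor sqstm1.L rose at stage 10.5 (0.39 ± 0.10, limma adjusted p = 0.0391). The BECN1 model Xelaev18043779m and atg14.L, parts of the lipid kinase complex that starts autophagosomes, were called lower (-0.67 and -0.53, adjusted p = 0.0409 and 0.0477), and atg14.L kept its call in 0 of 15 fits without 1 library. The BECN1 models Xelaev18043781m and Xelaev18046500m were not called at that stage (-0.15 and -0.04, limma adjusted p = 0.782 and 0.946). At stage 12 map1lc3b.L, a component of the autophagosome membrane, was lower (-0.77 ± 0.19, adjusted p = 0.0473), kept in 2 of 15, and it was higher in dorsal than in ventral half-embryos (1.48, adjusted p = 0.00286). In the BCL2 family, 0 of 12 genes were called higher and 1 lower at stage 10.5, mcl1.S, which blocks cell death (-0.72 ± 0.18, adjusted p = 0.0341), and 0 of 11 were called at stage 12. The homeolog mcl1.L, with higher mean RPKM, was not called at stage 10.5 (-0.21, limma adjusted p = 0.158). Over BCL2 family genes with a library at 1 RPKM in each kind of embryo, the single lower call was 9.09% of 11 genes at stage 10.5. Of all such genes 5.34% were called lower.

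Of the named calls, leaving out ankrd37.S, egln2.S and Xelaev18011284m, 12 of 12 at stage 10.5 were lost without whole embryo 3 and 10 without whole embryo 1, which kept those of ddit4.S and Xelaev18045447m. At stage 12, 6 of 7 were lost without whole embryo 1 and 6 without whole embryo 3, and the call kept in both fits was that of Xelaev18043771m. No sign changed in any of these fits.

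**Figure D5:**
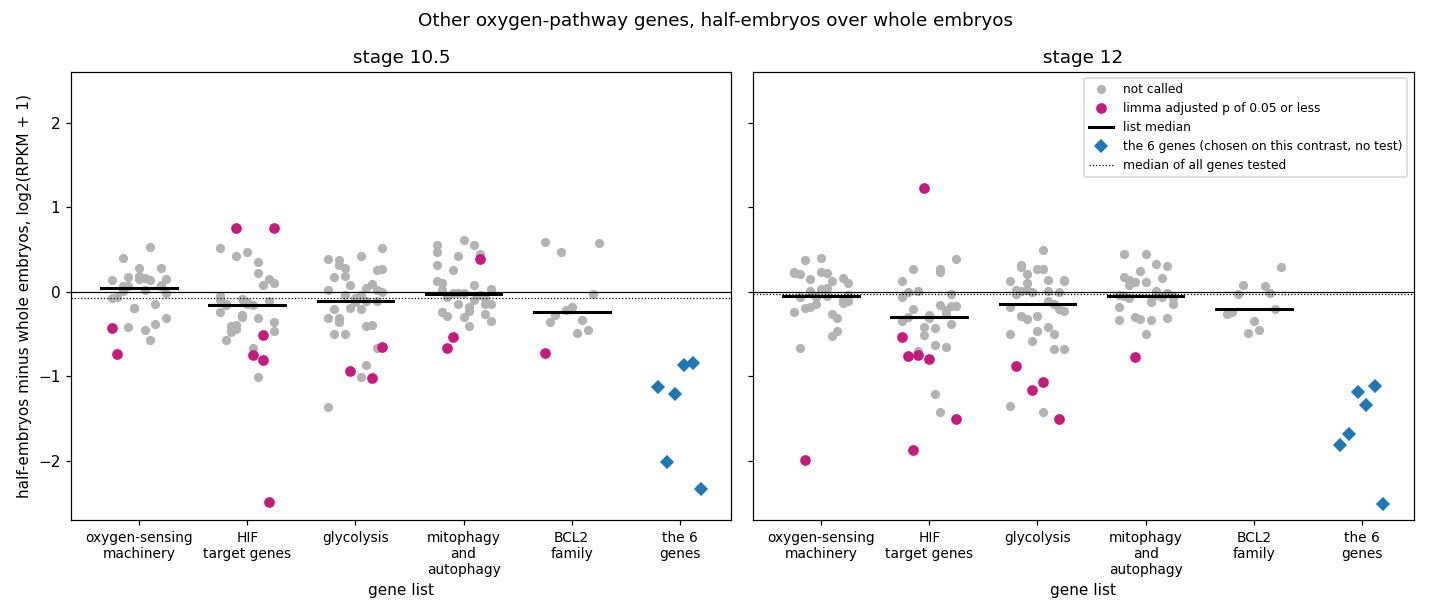
Log2(RPKM + 1) difference of half-embryos over whole embryos for the other genes of 5 pathway lists and, as blue diamonds, the 6 genes, at stage 10.5 (left) and stage 12 (right); purple points are genes called by limma, black bars list medians and the dotted line the median of all genes. List medians lie between -0.30 and 0.05, and the 6 genes, which were chosen on this difference, lie between -2.51 and -0.84.

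The genes whose pattern was most like that of the 6 were ranked among 8600 genes with a mean of 5 RPKM or more at each stage, by Pearson's r with the mean of the scaled values of the 6 genes over the 15 libraries of a stage. The 8 highest by the lower of the 2 stage values were a model matched to CDC20 (Xelaev18025163m, r = 0.94 at stage 10.5 and 0.93 at stage 12), ppp1r15b-like.S (0.90 and 0.92), a JARID2 model (Xelaev18031684m, 0.88 and 0.88), kdm3a-like.S (0.93 and 0.87), a MAZ model (Xelaev18002274m, 0.87 and 0.90), mterfd1-like.S (0.85 and 0.87), ccng2.S (0.90 and 0.85) and Xelaev18043719m (0.85 and 0.83), which has no human match in the table. These values describe the ranking only, over 12 half-embryos and 3 whole embryos. Within the 12 half-embryo libraries alone the same correlations ran from -0.62 to 0.55. In level, the gene kdm3a-like.S, whose human match is a histone demethylase induced by HIF in mammals, averaged 34.7 RPKM in half-embryos and 64.6 RPKM in whole embryos at stage 10.5, and 54.8 RPKM in half-embryos and 91.1 RPKM in whole embryos at stage 12. The CDC20 model, matched to an activator of the anaphase-promoting complex, averaged 92.7 RPKM in half-embryos and 151.0 RPKM in whole embryos at stage 10.5, and 75 RPKM in half-embryos and 119.8 RPKM in whole embryos at stage 12.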

How the data were processed

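For each stage the authors deposited RPKM values, reads scaled by gene length and depth, of JGI9.1 laevis gene models with human symbols from a protein search, per the file headers. Poly(A) libraries were unstranded (TruSeq kit V2), per the labels' protocols. TopHat2 2.09 and DESeq are named in the submitters' processing notes, and the read counter was not given in the sources used here. RPKM values stood in whole-number ratios within 100% of genes (relative tolerance 3e-09), from which the reads were recovered. Replicates differed by more than sampling noise (chi-square divided by its degrees of freedom, 6.50 to 12.2 over 30 pairs).

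Tests were two-sided, on log2(RPKM + 1), with limma 3.58.1 (trend option) under R 4.3.3. Genes had to reach 1 RPKM in 3 or more libraries, which left 16672 at stage 10.5 and 15594 at stage 12, among them all 6 genes. The 15 libraries of a stage shared 1 fit. Calls were made at a Benjamini-Hochberg adjusted p of 0.05 over all genes tested. The script was first tested on simulated data. The 6 genes and the pathway lists were chosen with earlier results of these data known. Named genes are the 6 and their homeologs, up to 3 called genes with the smallest p per list, stage and direction, every listed gene of the egln, HIF subunit, vhl, hif1an and bnip3l families, and the 8 most alike. Other copies, models or stages of some named genes are given beside them from the reported fit alone. These are not counted among the named genes or named calls. Symbols of all 6 were found in RefSeq's table of another assembly, whose coordinates were not used.

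Replicate numbers pair the samples, since each control's label names the half-embryos of its number. Deviations from group means correlated at 0.414 or more between same-numbered libraries at stage 10.5 and at 0.274 or more at stage 12. The fit reported had no block. Where both fits were made, the blocked value is printed beside a result whose call or count it changed (for counts, by over 1.5 times). Counts of single lists, and of genes at 1 RPKM in each kind of embryo, come from the fit with no block alone. Alternatives were a pseudocount of 0.1, no filter, upper-quartile scaling, quantile normalization, the block, a fit of the compared groups alone, each library left out in turn and, added after seeing the data, limma's voom on recovered reads.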

Additional observations from a re-analysis of the deposited data

How the results depend on the processing

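The 6 genes had 0 calls among half-embryos under every alternative run, and no difference from whole embryos changed sign. Few of all genes were called among half-embryos. In dorsal over ventral at stage 12 the share was 3.76%, and 5.76% with the replicate block, and in left over right it was 0.00%. With shares this low, 0 calls of 6 is no result about these genes. The count tests of edgeR and DESeq2 were not run on recovered reads, since the deposited unit is RPKM, and limma's voom was run instead. With a pseudocount of 0.1 the half-embryo over whole-embryo log2 differences of egln2.L, egln3.S and ankrd37.L were -1.70, -1.72 and -3.46 at stage 10.5 and -2.52, -1.55 and -3.60 at stage 12. With voom on recovered reads they were -1.76, -1.81 and -3.46 at stage 10.5 and -2.61, -1.59 and -3.77 at stage 12. The scale causes this, since a pseudocount of 1 compresses low values.

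With a block for replicate number, which pairs the samples, calls over all genes were 5075 and 2013 for half-embryos over whole embryos at stages 10.5 and 12 (1282 and 434 without it), 362 and 898 for dorsal over ventral (165 and 587) and 13 at stage 10.5 for sagittal over frontal (4). Pathway calls were 55 and 22 (15 and 12). Of the other counts fitted with the block, none changed by over 1.5 times. Counts of single lists, and of genes at 1 RPKM in each kind of embryo, were taken from the fit without it alone. Among named genes the block added hif1a.S at stage 12 and ended no call. At adjusted p-values of 0.0502 to 0.106, the calls of 7 named genes ended under 1 or more of the other settings in which all libraries were kept: atg14.L, sqstm1.L, pdk4.L and the FAM162A model Xelaev18011284m at stage 10.5, and hk1.L, map1lc3b.L and vegfa.L at stage 12.

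With the compared groups alone, dorsal over ventral gave 102 calls and sagittal over frontal 2 at stage 10.5. For sagittal over frontal voom gave 0 at stage 10.5 and 1 at stage 12, and the pseudocount of 0.1 gave 7 at stage 12 (main count 2). The cause was not tested.

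Leaving out 1 library at a time gave, at stages 10.5 and 12, 59 to 1290 and 41 to 671 calls for half-embryos over whole embryos, 78 to 162 and 305 to 637 for dorsal over ventral, 0 to 3 and 0 for left over right, 3 to 9 and 1 to 72 for sagittal over frontal, and 1 to 15 and 3 to 15 pathway calls. The lowest counts for half-embryos over whole embryos came without whole embryo 3 at stage 10.5 and without whole embryo 1 at stage 12, and 72 came without left half-embryo 2. Differences from whole embryos ranged as follows at stage 10.5. They were -1.30 to -0.96 for egln2.L, -2.25 to -1.58 for egln3.L, -1.38 to -0.89 for egln3.S, -1.07 to -0.69 for bnip3.L, -1.04 to -0.60 for bnip3.S and -2.95 to -1.41 for ankrd37.L. At stage 12 they were -2.01 to -1.54, -1.87 to -1.56, -1.38 to -0.97, -1.79 to -0.995, -1.55 to -0.80 and -3.04 to -1.73 in the same order of genes. Depth limits egln2.L and ankrd37.L most, with at most 28 and 16 reads per half-embryo library.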
